A study of Mus musculus with 16 samples.

Results

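Lung endothelial cells (EC) of metastasis-bearing mice (d36) were compared with lung EC of wild-type mice (d0) by single-cell RNA sequencing. All deposited cells whose names carry d36 or d0 were taken, 1628 and 2671 cells, together 4299 of the 9036 cells of the series. Of these, 1561 cells at d36 and 2630 at d0 met the endothelial criteria and were counted. Per the labels, all mice were C57BL/6N females, and the d36 mice had been given subcutaneous Lewis lung carcinoma, a line of mouse lung tumour cells. The other stages of the series, both before d36 in days, were primary tumour (d15) and tumour resection (d22). Their values are given only beside those of d36 and d0. The day names alone do not tell whether the d36 mice had also had their tumour resected. The labels list 4 libraries for each day, but the cell names give the day alone, so each day is 1 pooled sample and the number of mice behind it is not given in the sources used here. No spread between mice or libraries could be measured, and no p-value was computed. Each interval is a 95% exact interval that covers counting error only.

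The lung's vessel bed consists mostly of capillary EC of a pair of kinds, general capillary cells and the wide, thin aerocytes through which most gas exchange takes place. EC also set the tone of the vessel, keep its surface free of clots, present antigen and admit leukocytes. Genes of these tasks respond to blood flow, hormones, cytokines and circulating ligands. The series title states that lung EC were profiled as metastasis progressed, and d36 against d0 sets its last stage beside the wild-type lung.

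The cells of the d36 sample were shallower. The median was 3444 UMIs (unique molecular identifiers, each marking 1 captured RNA molecule) and 719 genes per cell at d36, against 7663 UMIs and 1360 genes at d0. Total counts were 6663327 UMIs at d36 and 23045602 UMIs at d0. For library preparation 10000 sorted EC were used, per the design text, several times the number of cells deposited for either day. The median mitochondrial share was 2.83% at d36 and 1.88% at d0, and 9 cell barcodes occurred at both days. Pan-endothelial markers summed to 14835 CPM (UMIs scaled to a total of 1000000 per day) at d36 and 13829 CPM at d0, with all 8 detected at both days. Epithelial markers summed to 127 CPM at d36 and 84.8 CPM at d0, mostly Sftpc, which encodes surfactant protein C of type II pneumocytes, at 104 CPM at d36 and 54.2 CPM at d0. Mural markers summed to 27.5 CPM at d36 and 23 CPM at d0, and macrophage markers to 2.85 CPM at d36 and 4.30 CPM at d0 with 5 and 6 of 8 markers at 0. Their part in the results below was not tested.

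Measured genes were those that reached 50 CPM on one of the days and 200 UMIs over the pair of days. A gene was called higher or lower when the ratio of its level at d36 to that at d0 was past 1.5-fold, both in the full sums and after every cell had been thinned at random to 1200 UMIs. Among 3649 measured genes, 133 were called higher (3.64%) and 95 lower (2.6%), together 6.25%. These shares are the background for each count of called list members below. The median log2 ratio of measured genes was -0.04. Predicted genes, pseudogenes, ribosomal and mitochondrial genes made up 48 of the higher genes but 1 of the lower genes. Without them, 85 of 3435 genes were higher (2.47%) and 94 lower (2.74%). Sums over all EC of a day cannot tell fewer cells of a type from less RNA in each of them, and the classes of EC are therefore described separately further on.

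**Figure D1:**
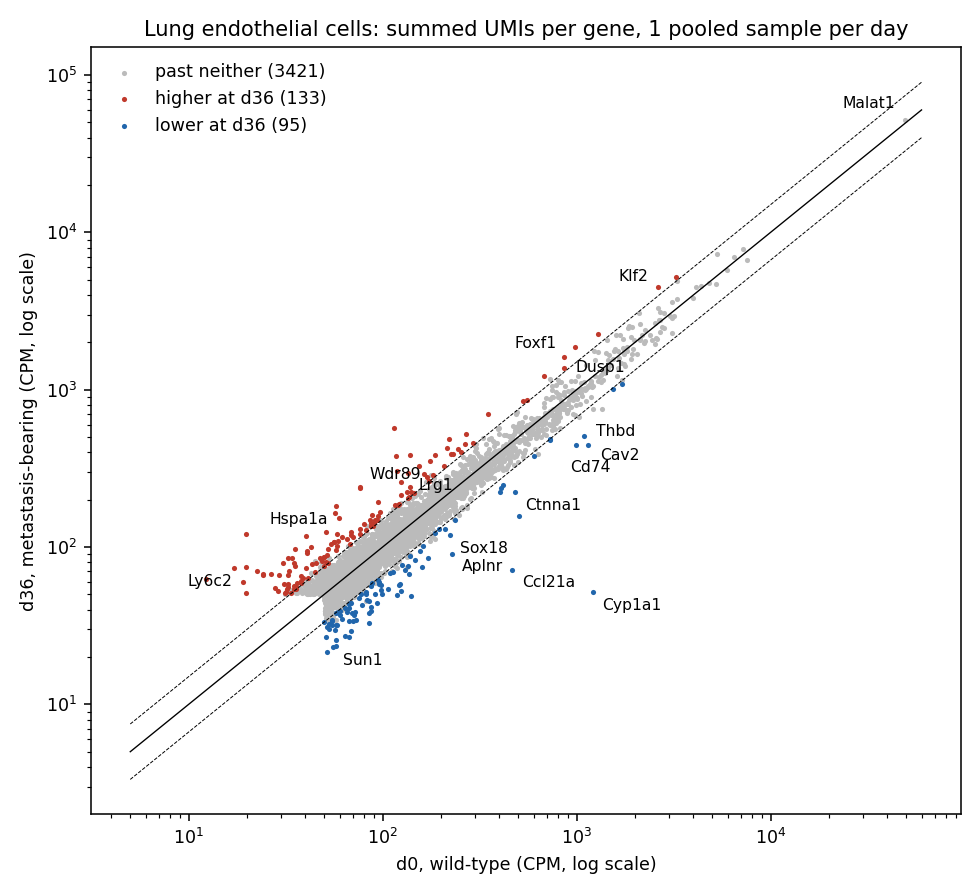
Level of each measured gene in lung EC at d36 (vertical axis, CPM, log scale) against d0 (horizontal axis, CPM, log scale), with the line of equal levels and dashed lines at 1.5-fold. The 133 genes called higher are red and the 95 called lower are blue; Cyp1a1 lies farthest below the line, at 51.6 CPM at d36 against 1211 CPM at d0.

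The largest difference was in Cyp1a1, the cytochrome P450 that the aryl hydrocarbon receptor induces in response to planar ligands from food, microbes or smoke. Cyp1a1 lies on chromosome 9 (57687928 to 57703824, plus strand, GENCODE M21 on GRCm38, the mm10 build that the submitters' processing notes name). It stood at 51.6 CPM at d36 and 1211 CPM at d0, 23.5-fold lower at d36 (interval 21.1 to 26.2), with a UMI in 52 of 1561 cells at d36 and in 1044 of 2630 cells at d0. Its levels at d15 and d22 were 34.9 and 57.5 CPM, and d0 was the 1 day with a high level. After thinning it was 17.4-fold lower at d36. In aerocyte-like cells it had 104 CPM at d36 and 2275 CPM at d0, and in general capillary-like cells 40.1 CPM at d36 and 1063 CPM at d0.

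The rest of the pathway showed no such difference. Ahr, the receptor, had 138 CPM at d36 and 155 CPM at d0, and Arnt, its DNA-binding partner, 16.4 CPM at d36 and 16.9 CPM at d0. Tiparp, which curbs the receptor and is itself one of its targets, had 37.1 CPM at d36 and 26.3 CPM at d0, a ratio of 1.41. Nfe2l2, a neighbouring detoxification factor, had 168 CPM at d36 and 200.2 CPM at d0. Cyp1b1 had 0 UMIs at d36 and 6 at d0. Of 3 measured members of the pathway list, Cyp1a1 alone was past the rule. The 250 bases before the start of Cyp1a1 (RefSeq, GRCm38.p6, chr9:57697363-57697612, plus strand) are shown because Cyp1a1 carries the largest difference. This RefSeq start lies inside the wider span that GENCODE gives for the gene, 57687928 to 57703824. Capitals mark the GCGTG core to which the receptor pair binds.
Cyp1a1: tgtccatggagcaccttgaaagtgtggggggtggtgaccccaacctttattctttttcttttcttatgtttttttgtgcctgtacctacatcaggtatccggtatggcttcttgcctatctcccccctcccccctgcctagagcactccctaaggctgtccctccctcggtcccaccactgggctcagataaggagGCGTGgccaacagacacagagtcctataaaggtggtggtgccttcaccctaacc
The core, searched on both strands, occurs in such windows of 28.2% of 27025 mouse promoters and in 5 of 8 promoters of the pathway list. The match is a description and not a binding site shown here.

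Of the flow-responsive genes, Klf2 was higher at d36 and Thbd, which Klf2 is known to induce, was lower. Klf2 (chromosome 8, 72319033 to 72321656, plus strand), the factor that laminar flow induces and that keeps endothelium quiescent, had 4485 CPM at d36 and 2633 CPM at d0, a ratio of 1.70 (interval 1.68 to 1.73), and 4042 and 2499.5 CPM at d15 and d22. Its paralog Klf4 had 1053 CPM at d36 and 751 CPM at d0, a ratio of 1.40 that stayed under 1.5-fold, and Klf6 had 307 CPM at d36 and 261 CPM at d0. Thbd (chromosome 2, 148404466 to 148408188, minus strand), thrombomodulin, which turns thrombin into an activator of protein C, had 509 CPM at d36 and 1094 CPM at d0 and was 2.15-fold lower (interval 2.07 to 2.23). Nos3, endothelial nitric oxide synthase, was under the 50 CPM minimum at both days, with 18.0 CPM at d36 and 16.5 CPM at d0. Of 9 measured members of the flow list, 1 was higher and 1 lower, and the median log2 ratio of its 13 detected members was -0.10, against -0.03 over all 8378 detected genes. Detected means at least 10 CPM at either day, with 1 CPM added to each level before the log. Klf2 ranged in ratio from 1.69 to 1.76 and Thbd from 0.458 to 0.485 over all alternative settings tried.

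Another anticoagulant gene differed the same way as Thbd. Pros1, protein S, the cofactor of activated protein C, had 67.5 CPM at d36 and 137 CPM at d0 and was 2.03-fold lower. Of 10 measured coagulation genes, these 2 were lower and 0 were higher, against 2.6% and 3.64% of all measured genes. Tfpi, the inhibitor of tissue factor, had 67.1 CPM at d36 and 84.1 CPM at d0, and Procr, the protein C receptor, lay under the minimum with 9.45 CPM at d36 and 10.8 CPM at d0. On the fibrinolytic side, Plat, tissue plasminogen activator, had 134 CPM at d36 and 92.4 CPM at d0, a ratio of 1.45 that was not past the rule in both counts. Vwf, von Willebrand factor, had 172 CPM at d36 and 165 CPM at d0. The median log2 ratio of the 12 detected members was -0.24.

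Single genes of caveolae, junctions, integrins and matrix were lower at d36. Cav2 (chromosome 6, 17281185 to 17289115, plus strand), a coat protein of caveolae, had 447 CPM at d36 and 1145 CPM at d0 and was 2.56-fold lower, while Cav1, the main caveolar coat protein, had 1375 CPM at d36 and 1454 CPM at d0. Cav2 lay at 475 CPM at d15 and 784 CPM at d22, between the levels of d36 and d0. Ctnna1, alpha-catenin, which ties adherens junctions to actin, had 223 CPM at d36 and 481 CPM at d0 and was 2.16-fold lower, the single junction gene of 13 measured past the rule. Cdh5, VE-cadherin, had 1032 CPM at d36 and 1102 CPM at d0, and Cldn5, the main tight junction claudin of EC, had 4751 CPM at d36 and 4792 CPM at d0. Itgb1, the beta chain shared by most matrix integrins, had 225 CPM at d36 and 404 CPM at d0 and was 1.79-fold lower, 1 of 5 measured integrins. In the matrix list, Bgn and Fbln5 were lower among 11 measured members. Bgn, biglycan, had 41.3 CPM at d36 and 87.6 CPM at d0. Fbln5, fibulin 5 of elastic fibres, had 29.1 CPM at d36 and 68.4 CPM at d0, with a UMI in 39 and 222 cells. Sparc and Col4a1, other matrix genes of EC, had 707 and 213 CPM at d36 against 712 and 196 CPM at d0.

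Genes of vessel tone and of signals received from the blood differed in both directions. S1pr1, the receptor through which sphingosine 1-phosphate tightens the endothelial barrier, had 389.9 CPM at d36 and 225 CPM at d0, a ratio of 1.73. S1pr1 is in no list and was chosen after its values were seen. Npr1, the receptor of atrial natriuretic peptide, had 75.6 CPM at d36 and 135 CPM at d0 and was 1.78-fold lower. Ace, angiotensin-converting enzyme, had 518 CPM at d36 and 692 CPM at d0, and Edn1, endothelin 1, had 228 CPM at d36 and 155 CPM at d0, neither past the rule in both counts. Calcrl, the receptor that binds adrenomedullin with Ramp2, had 1071 CPM at d36 and 787 CPM at d0. Npr1 was the 1 of 14 measured genes of vessel tone called lower.

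Among endothelial transcription factors, Foxf1 (chromosome 8, 121084386 to 121088144, plus strand), the forkhead factor that lung capillaries need to form, had 1608 CPM at d36 and 861 CPM at d0, a ratio of 1.87 (interval 1.82 to 1.91). Sox18, a SoxF factor of vessel and lymphatic development, had 119 CPM at d36 and 222 CPM at d0 and was 1.87-fold lower. Its close relatives Sox17 and Sox7 had 496 and 149 CPM at d36 against 364 and 119 CPM at d0, ratios of 1.36 and 1.26 on the other side of 1. Erg, an ETS factor of EC identity, had 89.9 CPM at d36 and 103 CPM at d0. Of 17 measured factors, Foxf1 was the 1 called higher and Sox18 the 1 called lower.

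The BMP and TGF-beta list had 3 of 13 measured members higher and 0 lower, against 3.64% and 2.6% of all measured genes. Bmpr2, the type II BMP receptor whose loss causes pulmonary hypertension in humans, had 401 CPM at d36 and 254 CPM at d0, a ratio of 1.58. Smad6, an inhibitory Smad that BMP signals induce, had 388 CPM at d36 and 230.4 CPM at d0, a ratio of 1.68. Skil, a repressor of Smad-driven transcription, had 105 CPM at d36 and 68.2 CPM at d0, a ratio of 1.54. The partner receptors Acvrl1 and Eng had 1775 and 1759 CPM at d36 against 1798 and 1629 CPM at d0. The target genes Id1 and Id3 had 1124 and 2091 CPM at d36 against 827 and 1736 CPM at d0, ratios of 1.36 and 1.20 under the rule. The median log2 ratio of 19 detected members was 0.27. All 3 lay close to the limit or under it in some settings. At 2500 UMIs per thinned cell Bmpr2 had a ratio of 1.30, and among cells above a common UMI minimum Skil had 1.33. Smad6 only just passed in the thinned sums used for the rule, with a ratio of 1.502, its lowest over all alternative settings tried.

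In the Notch list, all 9 detected members had a ratio above 1, with a median log2 ratio of 0.41 (0.28 after thinning), and 0 of 7 measured members were called. Of all 8378 detected genes, 3866 lay above 1. The receptors Notch1 and Notch4 had 98.3 and 75.5 CPM at d36 against 70.5 and 56.4 CPM at d0. The ligand Dll4 had 162 CPM at d36 and 154 CPM at d0, and Jag1, a ligand under the minimum, had 29.4 CPM at d36 and 14.4 CPM at d0, a ratio of 2.04. The targets Hes1 and Hey1 had 361 and 257 CPM at d36 against 272 and 185 CPM at d0.

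**Figure D2:**
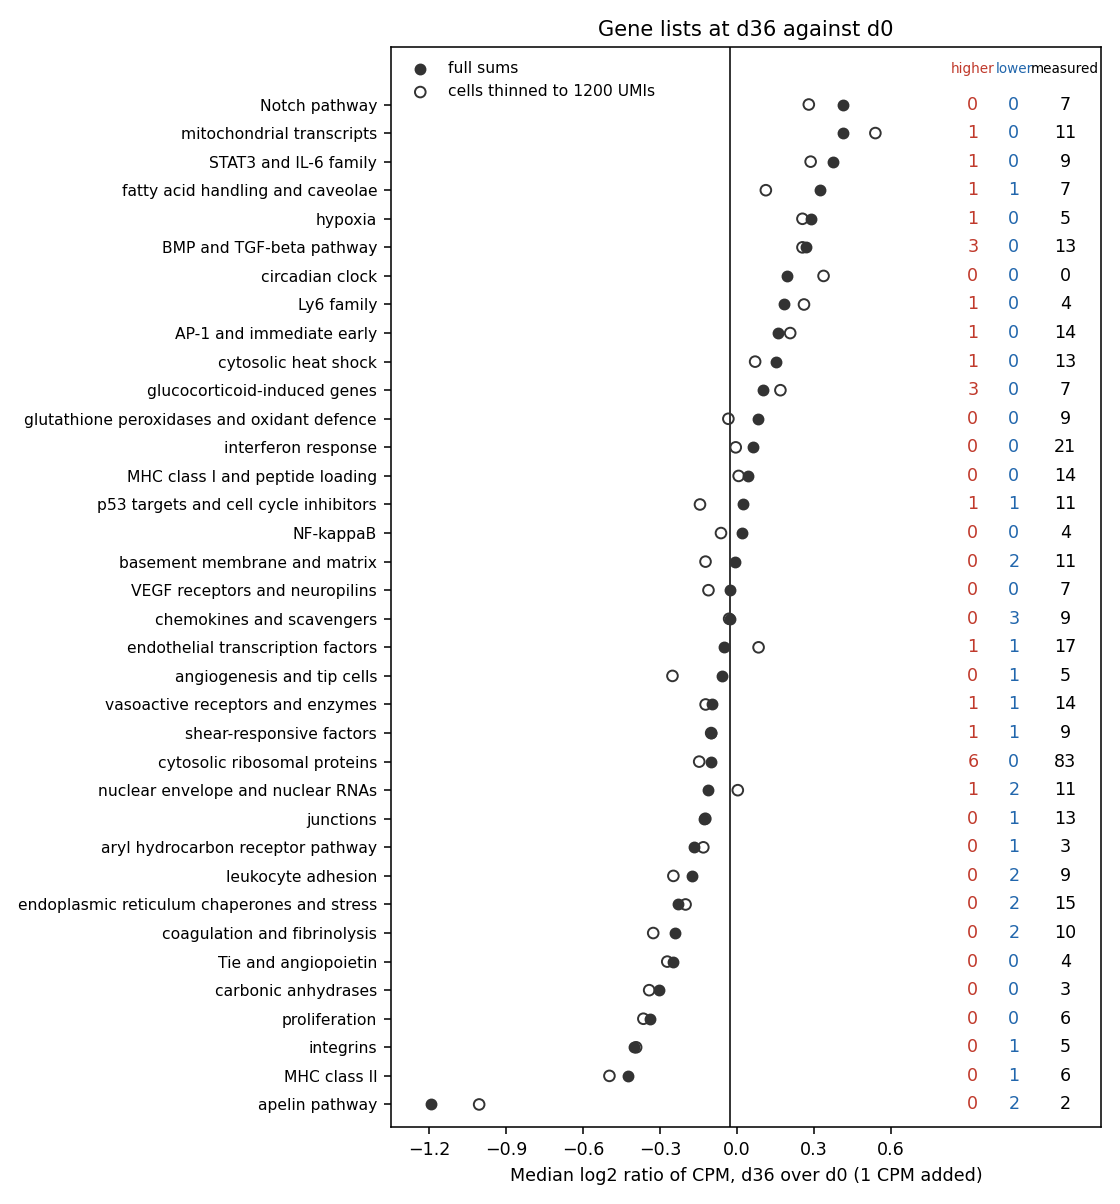
Median log2 ratio of CPM, d36 over d0, of the detected members of 36 gene lists (filled points, full sums; open points, cells thinned to 1200 UMIs), with the number of members called higher and lower and the number measured at the right. The vertical line is the median of all detected genes at -0.03; the apelin list lies lowest at -1.19. The Notch list and the mitochondrial transcripts lie level at 0.41 in full sums, with 0.28 for Notch and 0.54 for mitochondrial transcripts after thinning.

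Glucocorticoid-induced genes had 3 of 7 measured members higher and 0 lower, against 3.64% and 2.6% of all measured genes. The median log2 ratio of their 11 detected members was 0.10, with 7 above a ratio of 1 and 4 below. Tsc22d3, the glucocorticoid-induced leucine zipper, had 280.2 CPM at d36 and 170.1 CPM at d0, a ratio of 1.65. Dusp1, a MAP kinase phosphatase, had 1378 CPM at d36 and 862 CPM at d0, a ratio of 1.60, and Sult1a1, a phenol sulfotransferase, had 58.1 CPM at d36 and 31.0 CPM at d0, a ratio of 1.87. Dusp1 is also an immediate early gene, 1 of 14 measured in that list and the single one past the rule. Fkbp5, another common glucocorticoid target, had 2.40 CPM at d36 and 2.39 CPM at d0, from 16 UMIs at d36 and 55 at d0. Nr3c1, the receptor itself, had 114 CPM at d36 and 114 CPM at d0. Per1, a clock gene that glucocorticoids also induce, had 13.5 CPM at d36 and 4.60 CPM at d0, under the minimum, with a UMI in 35 and 56 cells. No clock gene reached the minimum. Arntl, the core activator of the clock, had 28.8 CPM at d36 and 19.2 CPM at d0.

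Hspa1a, the stress-inducible cytosolic HSP70, had 121 CPM at d36 and 58.4 CPM at d0, a ratio of 2.07 (interval 1.90 to 2.26), and lower levels of 45.8 and 32.1 CPM at d15 and d22. It was the 1 heat shock gene of 13 measured past the rule. Its UMIs lay in 130 of 1561 cells at d36 and 270 of 2630 at d0. Its neighbour and close copy Hspa1b, which shares none of the 60-base words in the last 400 bases of the transcript, had 32 UMIs at d36 and 14 at d0. Hspa8, the constitutive HSP70, had 2216 CPM at d36 and 1666 CPM at d0, and Dnajb1, an inducible HSP40, had 121 CPM at d36 and 102 CPM at d0. Hsp90aa1 and Hspb1 had 266 and 329.9 CPM at d36 against 295 and 476 CPM at d0. The ratio varied between classes of EC, a difference that was not tested. Hspa1a had 174 CPM at d36 and 54.5 CPM at d0 in general capillary-like cells, a ratio of 3.19, but 52.7 CPM at d36 and 54.7 CPM at d0 in the unnamed cluster led by Sema3c. The windows before both genes (RefSeq, GRCm38.p6, minus strand, chr17:34972157-34972406 for Hspa1a and chr17:34959239-34959488 for Hspa1b) are shown to compare these copies. Capitals mark GAANNTTC, the inverted pair of heat shock factor half-sites.
Hspa1a: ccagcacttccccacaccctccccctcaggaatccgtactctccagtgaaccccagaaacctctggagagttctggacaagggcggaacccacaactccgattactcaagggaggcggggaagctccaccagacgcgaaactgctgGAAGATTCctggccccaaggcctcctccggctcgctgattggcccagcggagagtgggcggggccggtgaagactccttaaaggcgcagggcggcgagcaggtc
Hspa1b: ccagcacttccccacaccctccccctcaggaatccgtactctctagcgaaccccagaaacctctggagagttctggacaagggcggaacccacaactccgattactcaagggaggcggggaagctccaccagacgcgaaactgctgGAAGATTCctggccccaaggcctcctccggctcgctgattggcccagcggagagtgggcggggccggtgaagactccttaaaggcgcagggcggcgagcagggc
The pair, searched on both strands, occurs in 6.78% of 27025 promoters and in 5 of 11 promoters of the heat shock list.

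Of the chaperone and stress genes of the endoplasmic reticulum, 12 of 18 detected members had a ratio under 1, against 4512 of all 8378 detected genes. Hsp90b1, the resident HSP90, had 378 CPM at d36 and 606 CPM at d0, 1.60-fold lower, and Canx, calnexin, had 148 CPM at d36 and 235 CPM at d0, 1.59-fold lower. These 2 were lower among 15 measured members, with 0 higher, against 2.6% and 3.64% of all measured genes. Hspa5, the resident HSP70, had 561 CPM at d36 and 696 CPM at d0, a ratio of 0.806, while the stress factors Xbp1 and Atf4 had 390.3 and 267 CPM at d36 against 342 and 237 CPM at d0. Among 5 measured hypoxia genes, Ankrd37, a target of hypoxia-inducible factors, was the 1 past the rule, with 66.6 CPM at d36 and 29.3 CPM at d0. Its UMIs lay in 102 cells at d36 and 173 at d0. Vegfa and Ldha, other targets, had 89.0 and 339.8 CPM at d36 against 63.1 and 281 CPM at d0. Adm, adrenomedullin, under the minimum, had 20.7 CPM at d36 and 8.16 CPM at d0.

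Both detected members of the apelin system were lower. Aplnr, the receptor, found on general capillary cells, had 90.6 CPM at d36 and 228 CPM at d0 and was 2.51-fold lower (interval 2.31 to 2.74). Apln, its ligand, made by aerocytes in the mouse lung, had 57.8 CPM at d36 and 122 CPM at d0 and was 2.11-fold lower. At d15 and d22 Aplnr had 142 and 159.5 CPM, and Apln 66 and 120.2 CPM. No VEGF receptor or neuropilin of 7 measured members of that list was past the rule in both counts. Kdr, the main VEGF receptor, had 312 CPM at d36 and 385 CPM at d0, Flt1 had 318 CPM at d36 and 332 CPM at d0, and Nrp1, a coreceptor, had 749 CPM at d36 and 1208 CPM at d0 with a ratio of 0.620 in the full sums and 0.699 after thinning. The Tie list likewise had 0 of 4 measured members called: Tek, the angiopoietin receptor, had 236 CPM at d36 and 212 CPM at d0. Angpt2, its antagonist ligand, under the minimum, had 31.4 CPM at d36 and 37.5 CPM at d0. Of the tip cell and angiogenesis list, Apln was the 1 of 5 measured members past the rule. Esm1, a tip cell marker, lay under the minimum with 49.7 CPM at d36 and 30.5 CPM at d0.

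Of the genes of antigen presentation by MHC class II, Cd74 was lower. Cd74, the invariant chain that guides class II molecules, had 448 CPM at d36 and 995 CPM at d0 and was 2.22-fold lower, while at d15 and d22 it had 309 and 2287 CPM. The class II chains H2-Aa, H2-Ab1 and H2-Eb1 had 273, 463 and 153 CPM at d36 against 376, 508 and 200.4 CPM at d0. Over all EC, all 6 measured members had a ratio under 1, against 4512 of all 8378 detected genes, and 1 was past the rule. Within classes of EC the chains did not all lie under 1, as given further on. The level of Cd74 at d36 lay above that of d15 and below those of d0 and d22. MHC class I genes differed little: 0 of 14 measured members were called, and H2-D1 and B2m, the heavy and light chain, had 6986 and 6677 CPM at d36 against 6511 and 7589.6 CPM at d0. Interferon-induced genes had 0 of 21 measured members called and a median log2 ratio of 0.06, with Ifit3 and Isg15 at 93.5 and 236 CPM at d36 against 129 and 234 CPM at d0. NF-kappaB genes had 0 of 4 measured members called, and Nfkbia, the feedback inhibitor, had 871 CPM at d36 and 728 CPM at d0.

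Leukocyte adhesion genes had 2 of 9 measured members lower and 0 higher, against 2.6% and 3.64% of all measured genes. Over all EC, Vcam1, the ligand of alpha-4 integrins, had 53.7 CPM at d36 and 106 CPM at d0. Its direction differed between classes of EC, as given further on. Glg1, an E-selectin ligand of the Golgi, had 43.8 CPM at d36 and 93.6 CPM at d0. Icam1, the ligand of leukocyte beta-2 integrins, had 357 CPM at d36 and 381 CPM at d0. Sele, E-selectin, had 4 UMIs at d36 and 12 at d0, and Selp, P-selectin, had 4.2 CPM at d36 and 10.2 CPM at d0. In the chemokine and scavenger list, 3 of 9 measured members were lower, against 2.6% of all measured genes. Ackr3, a scavenger of Cxcl12, had 39.2 CPM at d36 and 86.6 CPM at d0, and Ackr4, a scavenger of Ccl19 and Ccl21, had 45.8 CPM at d36 and 82.8 CPM at d0. Cxcl12 itself had 407 CPM at d36 and 301 CPM at d0, a ratio of 1.35 that did not pass. Ccl21a, the lymphatic chemokine that draws dendritic cells, was the third, with 71.9 CPM at d36 and 467 CPM at d0. Its count is uncertain, since it shares 65.1% of the 60-base words in the last 400 bases of its transcript with Gm13304.

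Lrg1, an acute-phase glycoprotein that endothelium secretes and that modulates TGF-beta signalling, had 207 CPM at d36 and 136 CPM at d0, a ratio of 1.52 (interval 1.43 to 1.62), and 268 and 104 CPM at d15 and d22. It was the 1 of 9 measured members of the STAT3 list past the rule. Stat3 and Socs3, its factor and feedback inhibitor, had 138 and 428 CPM at d36 against 112 and 416 CPM at d0. The pooled ratio of Lrg1 was smaller than its ratio in each of the 4 classes compared. In general capillary-like cells Lrg1 had 236 CPM at d36 and 104 CPM at d0, a ratio of 2.28. In aerocyte-like cells it had 87.3 CPM at d36 and 39.6 CPM at d0, a ratio of 2.21. The ratios were 2.54 in arterial-like cells and 3.62 in the unnamed cluster. Venous-like cells had 881 CPM in 33 cells at d36 and 1070 CPM in 139 cells at d0. They gave 12.9% of all Lrg1 UMIs at d36 and 49.0% at d0. With classes weighted to the same shares at both days, the ratio was 1.95. Without the cluster led by Ccl21a and Fabp4, which held 13.5% of Lrg1 UMIs at d36 and 2.74% at d0, the pooled ratio was 1.36, under the limit, and with stricter cell criteria it was 1.35.

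Vcam1 and Ccl21a drew on few cells as well. Venous-like cells gave 39.9% of Vcam1 UMIs at d36 and 59.8% at d0, and arterial-like cells gave 30.7% at d36 and 32.4% at d0. With classes weighted equally, Vcam1 had a ratio of 0.672, just short of the rule. Ccl21a came to 55.5% at d36 and 95% at d0 from 21 and 27 cells of the cluster led by Ccl21a and Fabp4. Without that cluster its ratio was 1.38, on the other side of 1. Fabp4, a fatty acid binding protein called higher at 108 CPM at d36 and 56.0 CPM at d0, had a ratio of 1.01 without the same cluster.

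**Figure D3:**
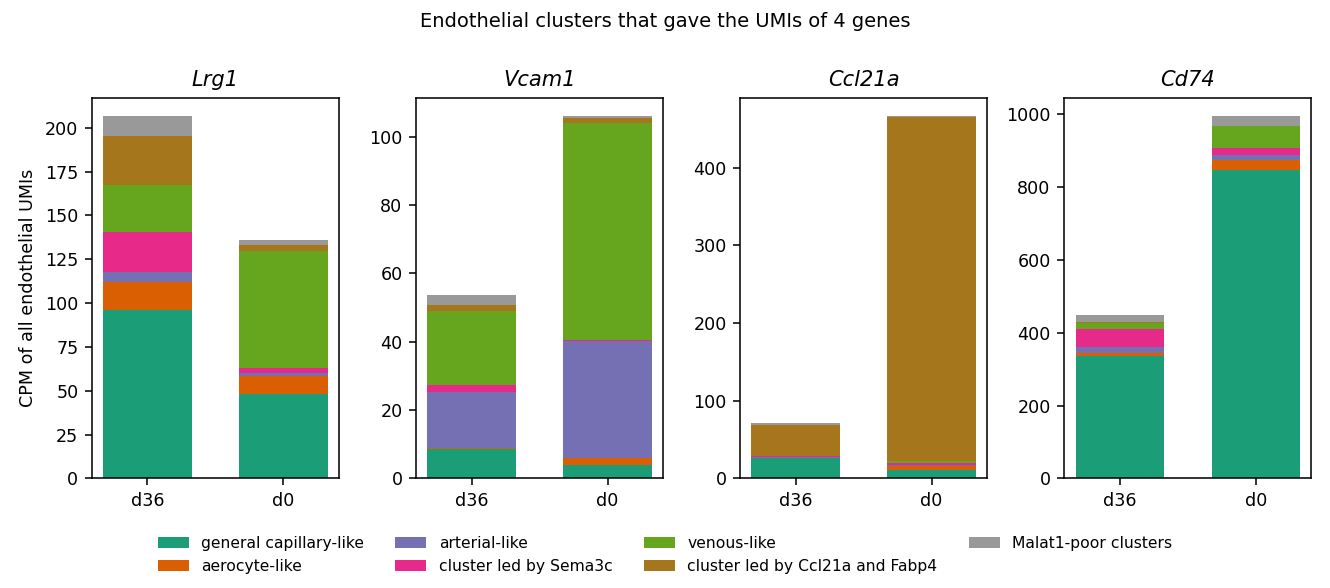
Level of 4 genes at d36 (left bar) and d0 (right bar) in CPM of all endothelial UMIs, divided by the class or cluster of EC that gave the UMIs. Venous-like cells gave 12.9% of Lrg1 UMIs at d36 and 49.0% at d0, and the cluster led by Ccl21a and Fabp4 gave 55.5% of Ccl21a UMIs at d36 and 95% at d0.

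Several further genes differed within the remaining lists. Cdkn2b, the cell cycle inhibitor p15, had 49.4 CPM at d36 and 118 CPM at d0 and was 2.40-fold lower, and Gadd45g, a stress sensor, had 223 CPM at d36 and 141 CPM at d0, a ratio of 1.59. They were the 2 called of 11 measured genes of the p53 and cell cycle inhibitor list, in which Cdkn1a, p21, had 723 CPM at d36 and 495 CPM at d0. Proliferation genes lay below 1 in 20 of 21 detected members, against 4512 of all 8378 detected genes. Their median log2 ratio was -0.34, but 0 of 6 measured members were called. Top2a, a marker of dividing cells, had 6.30 CPM at d36 and 16.6 CPM at d0. Of the nuclear list, Kcnq1ot1, an imprinted long noncoding RNA, had 135 CPM at d36 and 86.7 CPM at d0 and was higher, while Sun1 and Lbr, proteins of the nuclear envelope, had 23.1 and 38.6 CPM at d36 against 55.5 and 72.2 CPM at d0 and were lower. Malat1, an abundant nuclear RNA, had 51775 CPM at d36 and 49309 CPM at d0. In the oxidant defence list, 0 of 9 measured members were called, and Gpx3, a secreted glutathione peroxidase, had 61.8 CPM at d36 and 95.1 CPM at d0. In the carbonic anhydrase list, 0 of 3 were called, and Car4, an aerocyte enzyme, had 1161 CPM at d36 and 1711 CPM at d0.

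Of 83 measured ribosomal protein genes, 6 were higher and 0 lower. Yet 60 of 83 lay below 1, against 4512 of all 8378 detected genes. Among those called were Rps28, Rps29, Rps27, Rpl6l and Rpl38, with ratios of 2.02, 1.90, 1.77, 1.76 and 1.61. All 6 share sequence near their 3′ end with other annotated genes, so their counts are uncertain. Of 11 measured mitochondrial transcripts, mt-Co3 alone was called, with 5234 CPM at d36 and 3262 CPM at d0, and it also matches a copy elsewhere in the genome.

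Several of the highest ratios belong to genes with a near copy. Ly6c2, an Ly6 surface protein, had 59.6 CPM at d36 and 19.0 CPM at d0, a ratio of 3.14, and shares 28.3% of the 60-base words in the last 400 bases of its transcripts with Ly6c1, which had 2619 CPM at d36 and 2126 CPM at d0. Rnaset2a and Rnaset2b, twin copies of a lysosomal ribonuclease, had 85.4 and 85.7 CPM at d36 against 33.9 and 32.5 CPM at d0. Psme2b had 124 CPM at d36 and 50.9 CPM at d0 and shares 65.1% of its words with Psme2, the proteasome activator subunit, at 323 CPM at d36 and 331 CPM at d0. Cox17, a copper chaperone of cytochrome oxidase, had 294 CPM at d36 and 135 CPM at d0, and Wdr12, a ribosome biogenesis factor, had 79.5 CPM at d36 and 35.1 CPM at d0, both with shared words as well. These values are uncertain, since the counting may have split the copies.

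With predicted, ribosomal and mitochondrial genes and pseudogenes left out, the highest ratio belonged to Wdr89, a WD repeat protein gene, with 241 CPM at d36 and 76.3 CPM at d0, a ratio of 3.16 (interval 2.95 to 3.38). It was also at 159 CPM at d15 and at 70.8 CPM at d22. Other genes of the highest 15, chosen with the same kinds of gene left out, were Usp50, a ubiquitin protease family gene, with 66 CPM at d36 and 24.2 CPM at d0, Mto1, a mitochondrial tRNA modifier, with 94.7 CPM at d36 and 40.5 CPM at d0, and Atp5k, a subunit of ATP synthase, with 327 CPM at d36 and 155 CPM at d0. Huwe1, a ubiquitin ligase, had 70.2 CPM at d36 and 32.9 CPM at d0, Kmt2d, a histone methyltransferase, had 66.6 CPM at d36 and 32.4 CPM at d0, and Toporsos, an antisense gene, had 75.3 CPM at d36 and 35.1 CPM at d0. Reads of Toporsos and of its partner gene may not have been told apart.

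Among the lowest 15 were Cmtm6, a membrane protein that stabilises PD-L1, with 48.5 CPM at d36 and 140.2 CPM at d0, and Antxr2, an anthrax toxin receptor that binds matrix, with 32.9 CPM at d36 and 85.1 CPM at d0. Cytl1, a secreted cytokine-like protein, had 52.5 CPM at d36 and 124 CPM at d0, with a UMI in 50 cells at d36 and 205 at d0. Slc38a10, Kctd20 and Sun1 had 26.9, 23.6 and 23.1 CPM at d36 against 67.4, 57.6 and 55.5 CPM at d0. Cpe, Fam174b and Pcolce2 had 21.6, 27.3 and 25.8 CPM at d36 against 51.4, 63.9 and 57.5 CPM at d0, all on few cells. Their ratios reached 0.678, 0.796 and 0.725 under other settings, past the limit.

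EC were clustered over all 4 days. Each cluster was named for the general capillary, aerocyte, arterial, venous or lymphatic marker list on which it scored highest. It stayed unnamed where markers of another of these lists were more frequent among its leading genes. General capillary-like cells, named by this score, numbered 703 at d36 and 1302 at d0. Aerocyte-like cells, led by Fibin and Ednrb, numbered 237 at d36 and 462 at d0, and arterial-like cells, led by Plac8 and Plat, 162 at d36 and 264 at d0. Arterial-like cells were 10.4% of EC at d36 in this clustering but 1.86 to 3.33% in the 3 other clusterings, so their values rest on this clustering alone. The same holds for the unnamed cluster described next, which was 16.9% of EC at d36 and 10.2% at d0 here, 4.68% at d36 and 6.27% at d0 at resolution 2.0, and had no cells at either day in the 2 remaining clusterings. A cluster led by Sema3c and Sgk1 stayed unnamed, with 264 cells at d36 and 267 at d0. It had the highest general capillary marker score of all clusters, but arterial markers were more frequent among its leading genes. General capillary-like cells came from different clusters at the 2 days. A cluster with few UMIs per cell, whose leading genes were Hmcn1 and mt-Nd1, held 59.9% of them at d36 and 17.4% at d0, and a cluster led by Cd74 and H2-Eb1 held 11.8% at d36 and 35.5% at d0. A cluster led by Atf3 and Egr1 held 12.9% at d36 and 22.3% at d0. Neither it nor the cluster led by Hmcn1 had a class marker among its 10 leading genes, so both entered the class by score alone. The median UMI count of aerocyte-like cells was 3180 at d36 and 13172 at d0, a wider gap than in the other classes. Malat1-poor clusters, kept out of the classes, held 9.03% of EC at d36 and 6.43% at d0.

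Shares of cells were taken from a clustering that left out the genes past 1.5-fold between the 2 days. Venous-like cells (Slc6a2, Car8) were 2.50% of EC at d36 (39 of 1561, interval 1.78 to 3.40) and 5.55% at d0 (146 of 2630, interval 4.71 to 6.50). In the 3 other clusterings they were 2.11 to 2.88% at d36 and 5.25 to 5.44% at d0. Aerocyte-like cells were 15.4% at d36 (13.7 to 17.3) and 17.6% at d0 (16.2 to 19.2), and general capillary-like cells 69.6% at d36 and 66.7% at d0. In the clustering used for the class values, general capillary-like cells differed the other way, with 45% at d36 (42.5 to 47.5) and 49.5% at d0 (47.6 to 51.4). That clustering kept the unnamed cluster, 16.9% of EC at d36 and 10.2% at d0, out of them. The direction of their share therefore depends on the clustering and on how that cluster is named. These are shares of sorted cells at unequal depth, without a replicate.

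The same rule was applied within classes, which hold fewer UMIs per gene than the sum of all EC. In general capillary-like cells, 186 of 3696 measured genes were higher (5.03%) and 142 lower (3.84%). In aerocyte-like cells, 243 of 3666 were higher (6.63%) and 234 lower (6.38%). In arterial-like cells, 134 of 2672 were higher (5.01%) and 165 lower (6.18%), and in the unnamed cluster 143 of 2906 were higher (4.92%) and 141 lower (4.85%). With the same kinds of gene left out as above, Wdr89 was among the 5 highest genes in each class, and Cyp1a1 was the lowest gene in each. Klf2 had ratios of 1.66, 1.55, 1.69 and 1.87 in general capillary-like, aerocyte-like, arterial-like and unnamed cells, and Thbd had 0.495, 0.451, 0.490 and 0.430. Dusp1, Cav2, Aplnr, Npr1 and Ctnna1 likewise lay past 1.5-fold in the same direction in the full sums of each class.

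The ratios of other genes varied more between classes. Foxf1 had 1595 CPM at d36 and 594 CPM at d0 in arterial-like cells, a ratio of 2.68, but 1479 CPM at d36 and 1164 CPM at d0 in aerocyte-like cells, a ratio of 1.27. Tsc22d3 had a ratio of 2.48 in arterial-like cells, with 235 CPM at d36 and 95 CPM at d0, and of 1.40 in the unnamed cluster. Cd74 had ratios of 0.454 and 0.452 in general capillary-like and aerocyte-like cells, 0.755 in arterial-like cells and 1.17 in the unnamed cluster. In the same order of classes, the class II chain H2-Ab1 had ratios of 0.767, 1.38, 1.78 and 1.27. H2-Eb1 had 0.671, 1.25, 1.64 and 1.56, and H2-Aa had 0.676, 0.666, 1.30 and 0.886. Tgfbr2, a TGF-beta receptor, was higher in aerocyte-like cells, with 61.5 CPM at d36 and 22.1 CPM at d0, but had 29.9 CPM at d36 and 28.1 CPM at d0 over all EC. Ces2e, a carboxylesterase, was lower in aerocyte-like cells, with 9.15 CPM at d36 and 64.5 CPM at d0, but had 12.5 CPM at d36 and 17.3 CPM at d0 in general capillary-like cells. These differences between classes were not tested.

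**Figure D4:**
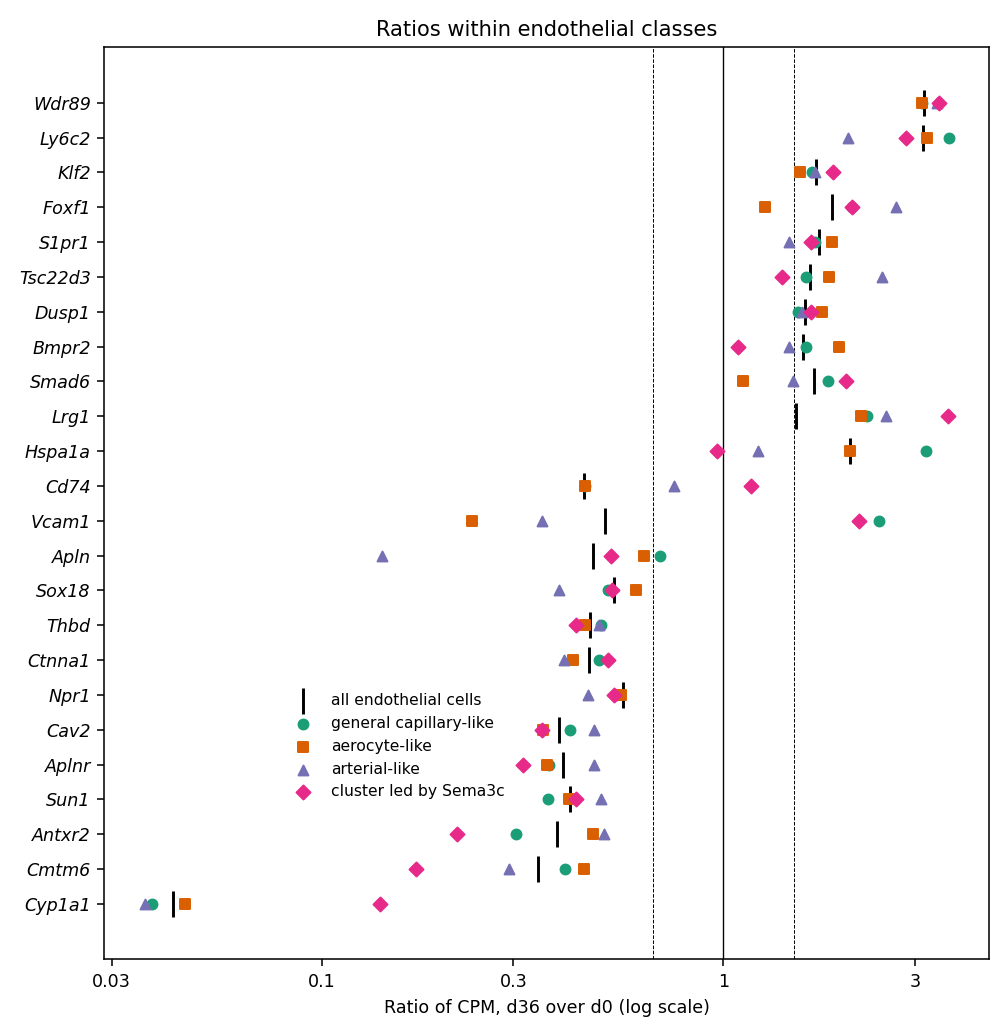
Ratio of CPM at d36 over d0 (horizontal axis, log scale) of 24 genes in all EC (black bars) and in 4 classes of EC (coloured points), with dashed lines at 1.5-fold. The points of Klf2, Thbd and Cav2 lie close together, while those of Hspa1a run from 0.964 to 3.19 and those of Lrg1 lie to the right of the bar.

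The other days were set beside d36, with comparisons to d0 that share the d0 cells. Cyp1a1 and Thbd had their highest level at d0. Klf2, Foxf1 and Ly6c2 had like levels at d36 and d15 and like levels at d22 and d0. Other genes called higher had this order of days too. Dusp1 had 1345 CPM at d15 and 884 CPM at d22, S1pr1 369 and 248 CPM, and Bmpr2 371 and 273 CPM. Wdr12, Mto1 and Psme2b were further cases, while Hspa1a, Sult1a1 and Usp50 were past 1.5-fold of every other day at d36. How many called genes share this order was not counted. The median UMI count per cell was 7663, 4212, 7704 and 3444 at d0, d15, d22 and d36, so that depth moved with these genes. Among cells with at least 2576 UMIs, the lowest count of a d0 cell, which left out 580 cells at d36, Klf2 had a ratio of 1.73.

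A rule chosen after the data were seen asked which genes at d36 lay past 1.5-fold of every other day, in full and thinned sums. Of 3814 genes measured at any day, 10 were higher and 11 lower than at all other days. Without predicted, ribosomal, mitochondrial genes and pseudogenes these were 5 and 10. Those higher were Hspa1a, Sult1a1, Usp50, Atp5k and Upf2, a factor of nonsense-mediated decay. Hspa1a had 121 CPM at d36 against 58.4, 45.8 and 32.1 CPM at d0, d15 and d22, and Sult1a1 had 58.1 CPM at d36 against 31.0, 30.3 and 22 CPM. Those lower included Ccl21a, Fbln5, Cytl1, Cmtm6, Ackr3, Aplnr and Bgn. Fbln5 had 29.1 CPM at d36 against 68.4, 66.8 and 64.8 CPM, and Ackr3 had 39.2 CPM at d36 against 86.6, 66.1 and 76.3 CPM at d0, d15 and d22. Fbln5 and Cytl1 drew on few cells. Venous-like cells, 33 at d36 and 139 at d0, gave 16.5% of Fbln5 UMIs at d36 and 47.2% at d0. Of Cytl1 UMIs they gave 26% at d36 and 48.0% at d0. In arterial-like cells Fbln5 had a ratio of 0.589 and Cytl1 of 0.294. The part of class shares in the pooled values was not tested.

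**Figure D5:**
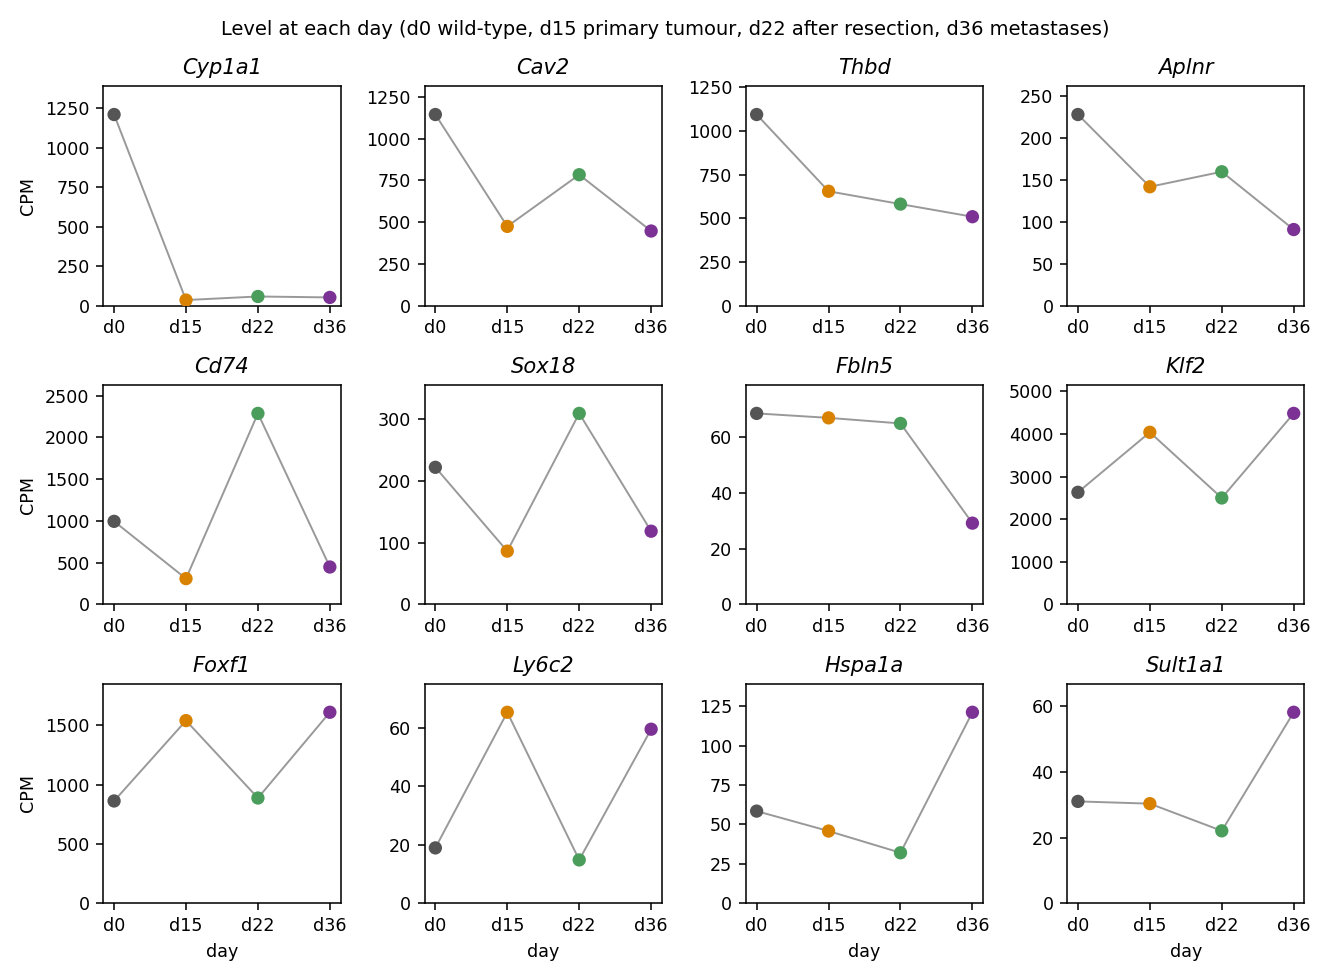
Level in lung EC (CPM) of 12 genes at d0, d15, d22 and d36 in time order, 1 point per pooled day. Cyp1a1 is high at d0 alone, Klf2, Foxf1 and Ly6c2 are high at d15 and d36, and Hspa1a and Sult1a1 are highest at d36.

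Called genes also differed in transcript length. The median transcript (GENCODE M21) of the 130 higher genes with a length was 1826 bases, that of the 93 lower genes 3618 bases and that of 3552 measured genes 2476 bases. Of the higher genes, 38.5% had a transcript under 1000 bases, against 4.30% of the lower genes and 10.6% of all measured genes. Without ribosomal, mitochondrial, predicted genes and pseudogenes the medians were 2796 and 3626 bases. The median GC content of transcripts was 50.4% in higher genes, 50.03% in lower genes and 50.1% in all measured genes.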

How the data were processed

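Per the labels' protocols, lung EC were sorted by flow cytometry and sequenced as Chromium 3′ libraries (10x Genomics, version 2). The authors deposited 1 table of raw UMI counts per gene and cell, with 28692 gene symbols. Counting used Cell Ranger 2.1.1 on mm10, per the submitters' processing notes. Not given in the sources used here were the annotation release, strand setting and authors' cell filters. Cell names give the day but not the library.

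Cells were counted as EC with at least 300 genes, at most 10% mitochondrial UMIs, at least 0.2% of UMIs from pan-endothelial markers, and under 0.2% (or under 5 UMIs) from each list of another cell type's markers. This left out 16 cells at d36 and 0 at d0 on genes or mitochondrial share, 36 at d36 and 33 at d0 on other markers, and 15 at d36 and 8 at d0 on endothelial markers. No doublet caller was run, so doublets remain; 1 cell at d36 and 99 at d0 had over 20000 UMIs. UMIs were summed per day, divided by the day's total (CPM) and compared by the size rule, without a test, since each day is 1 pooled sample. Ratios have exact binomial and shares Clopper-Pearson 95% intervals; they treat UMIs as independent and cover counting error only. Cells were clustered by the Leiden method (leidenalg 0.10.2, scanpy 1.11.5, Python 3.11.15) on 2000 variable genes, 30 components and 15 neighbours at resolution 1.0. No class took in clusters with Malat1 under 25% of the median cluster, and classes were compared with at least 50 cells at both days. The calling step was tested on simulated data. TMM scaling used edgeR 4.0.16 on R 4.3.3. Transcript lengths and shared words came from GENCODE M21, with 3552 of 3649 measured symbols matched, and promoters from RefSeq.

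The genes named were the 15 highest and 15 lowest ratios and the 5 highest and 5 lowest per class (predicted, ribosomal and mitochondrial genes and pseudogenes left out), list members past the rule or needed to tell a pathway, and a fixed set of single genes. Results for some of these genes are not reported here. The comparison, the gene lists and this rule were chosen with earlier results of these data known. Alternatives covered depth, weighting of cells, scaling, cell criteria, class shares, minimum levels, fold and clustering.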

Additional observations from a re-analysis of the deposited data

Results flagged for a closer look

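Wdr74, a WD repeat protein of ribosome biogenesis, differed in direction between 2 classes of EC, each past 1.5-fold in full and thinned sums. In general capillary-like cells it had 57.0 CPM at d36 and 32.3 CPM at d0, a ratio of 1.77. In aerocyte-like cells it had 7.49 CPM at d36 and 58.4 CPM at d0, a ratio of 0.128. Over all EC it had 38.7 CPM at d36 and 40.7 CPM at d0. The difference between the classes was not tested, since each day is 1 pooled sample.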

How the results depend on the processing

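The counts of 133 higher and 95 lower genes stayed within 1.5 times under 13 of 16 alternatives for higher and 12 of 16 for lower genes. Thinned sums alone gave 188 lower genes. Without a minimum level, 1533 genes were higher and 1227 lower; at a minimum of 100 CPM, 79 and 39; at 2-fold, 35 and 19. Without mitochondrial, ribosomal and pseudogene UMIs in the total, 104 and 101 genes were called, 50.7% of them higher against 58.3%. The arterial-like share at d36, 10.4%, was 1.86% at resolution 0.5, 3.33% at resolution 2.0 and 2.05% in a clustering without the called genes, and the cause was not tested. Ccl21a reversed to a ratio of 1.38 without the cluster led by Ccl21a and Fabp4. Of all ratios recomputed, 1280 stayed within the counting interval of the reported ratio, 296 moved outside it and 1 reversed. Of the list medians recomputed, 375 stayed within 0.1 on the log2 scale and 55 did not. Besides the genes given above, Kcnq1ot1 reached a ratio of 1.20 and Sftpc 1.47 at 2500 UMIs per cell, a setting that left out 559 cells at d36 and 0 at d0, and mt-Co3 1.29 with stricter cell criteria; Sftpc had 20.9 over all deposited cells. No paired analysis was possible because the cell columns carry no library number, and no library could be left out for the same reason. Depth per cell limits genes under 50 CPM, and the size of the spread between mice is not known.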

Other observations

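Cells left out for markers of another type were few at both days. Cells past the limit for epithelial markers were 14 of 1612 at d36 (0.868%, interval 0.476 to 1.45) and 15 of 2671 at d0 (0.562%, interval 0.315 to 0.925), of those that met the gene and mitochondrial criteria. Cells past the limit for erythroid and platelet markers were 12 of 1612 at d36 (0.744%) and 7 of 2671 at d0 (0.262%). Leukocyte markers gave 4 cells at d36 and 2 at d0, macrophage markers 2 at d36 and 0 at d0, and fibroblast markers 5 at d36 and 6 at d0. Over all deposited cells, left-out cells included, epithelial markers summed to 1517 CPM at d36 and 174 CPM at d0, and erythroid and platelet markers to 122 CPM at d36 and 774 CPM at d0.

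A further 14 genes, chosen after their values were seen, were past the rule in one class of EC and past it the other way in another class. For background, the 4 classes had 2672 to 3696 measured genes each, of which 4.92 to 6.63% were higher and 3.84 to 6.38% lower. How many genes were measured in more than 1 class was not counted, so the 14 genes have no share beside them. Tap1, a transporter that loads peptides onto MHC class I, had 145 CPM at d36 and 88.6 CPM at d0 in the unnamed cluster, but 67.1 CPM at d36 and 114 CPM at d0 in arterial-like cells. Emp3, a membrane protein, had 90.1 CPM at d36 and 50.9 CPM at d0 in the unnamed cluster, but 92.7 CPM at d36 and 152 CPM at d0 in arterial-like cells. Sash1, a scaffold protein of endothelial signalling, had 96.5 CPM at d36 and 52.2 CPM at d0 in aerocyte-like cells, but 48.1 CPM at d36 and 136 CPM at d0 in the unnamed cluster. Over both days the 14 genes had 545 to 1447 UMIs each in their 2 opposed classes together, and the differences between classes were not tested.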
